A study of Mus musculus with 95 samples.

Results

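PCGF6 was mapped by chromatin immunoprecipitation and sequencing (ChIP-seq) in mouse embryonic stem cells of the E14 line that lacked other members of the PCGF family. The samples compared here, all with a PCGF6 antibody, were wild-type E14 cells, Pcgf1-/- cells, Pcgf2/4-/- cells (lacking Pcgf2 and Pcgf4, whose gene symbol is Bmi1), Pcgf3/5-/- cells and Pcgf6-/- cells, which are 5 of the 95 samples of the series. Each is 1 peak list from 1 library, so no comparison of peaks carries a test. A peak was kept when it did not overlap, by 1 bp or more, a peak that the same antibody gave in Pcgf6-/- cells. After that removal 1389 peaks remained in wild-type, 4901 in Pcgf1-/-, 12027 in Pcgf2/4-/- and 1209 in Pcgf3/5-/-, out of 1189711 peaks in the 80 lists of the series. Merged over these 4 lines they formed 12568 regions.

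Per the labels' protocols, the knockouts were Cas9-edited clones, lines without several genes were edited again from single knockouts, and all cells grew in medium with serum, LIF and inhibitors of the kinases GSK3β and MEK. A clone's own history therefore cannot be told apart from the loss of its gene. Whether the ChIP and RNA libraries of a line came from the same clone is not given in the sources used here. A pair of PCGF6 lists from cells that lack no Pcgf gene was set beside those of the knockouts. They are E14 cells with a lentiviral control hairpin (shCtr, 6748 peaks kept) and Ring1a-/- cells with a floxed Ring1b (Ring1a-/-_Ring1bfl, 1581 peaks kept). The latter lack RING1A, a subunit of PRC1, so their list does not measure the difference between libraries alone. RNA was counted in 2 libraries for each line. The counts of the 2 wild-type RNA libraries differed by less than the sampling noise (chi-square per degree of freedom 0.951, against 1.19 to 21.3 in the other groups), so their sum was counted as 1 sample in every test, while the values of both are given.

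Polycomb repressive complex 1 (PRC1) places ubiquitin on histone H2A through its catalytic subunit RING1A or RING1B, and each form of the complex is built around 1 PCGF protein. PCGF2 and PCGF4 form the canonical complexes, which also hold a CBX protein that reads the H3K27me3 mark placed by PRC2, whose subunits include SUZ12. PCGF1, PCGF3, PCGF5 and PCGF6 form variant complexes. The PCGF6 form, PRC1.6, holds the DNA-binding proteins MGA and MAX, which recognise an E-box, and E2F6 with a DP partner, which recognises an E2F site. It also holds L3MBTL2, WDR5, HP1 proteins and the deacetylases HDAC1 and HDAC2. In embryonic stem cells it is known for keeping genes of germ cells and meiosis silent.

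RNA of the edited genes was lower in some lines and did not pass the test in others. No count fell on Pcgf6 in either Pcgf6-/- library. Gene levels are given as CPM, the count scaled to a library size shared by all samples. Scaled by the raw library totals instead, 3 counts would be 0.400 and 0.477 CPM in these libraries. Such limits are thus not exactly on the scale of the gene levels. Pcgf1 stood at 66.1 and 61.0 CPM in wild-type and at 4.81 and 3.20 in Pcgf1-/-. In the libraries labelled Pcgf2/4-/-, Pcgf2 RNA was 41.0 and 54.8 CPM against 42.9 and 48.9 in wild-type, and Bmi1 12.1 and 14.1 against 16.1 and 14.2 (edgeR adjusted p = 0.749 and 0.650). In those labelled Pcgf3/5-/-, Pcgf3 was 11.4 and 12.8 CPM against 16.4 and 15.5 (adjusted p = 0.403). Pcgf5 fell there to 5.48 and 4.6 CPM from 13 and 10.8 (log2 fold change −1.22, adjusted p = 0.00686), a change near those in Pcgf1-/- (−1.28) and Pcgf2/4-/- (−1.18), where it was not edited. Gene-level counts do not show an edit that leaves the transcript in place. The PCGF2 antibody gave 1050 peaks in Pcgf2/4-/- and 4472 in wild-type, the PCGF1 antibody 15 in Pcgf1-/- and 736 in wild-type, and the PCGF3 antibody 21 in Pcgf3/5-/- and 223 in wild-type. RNA totals ran from 2764111 to 7848161 counts in the 5 lines, with the lowest in 1 of the Pcgf2/4-/- libraries. Of 8 embryonic stem cell markers, all were measured, and at most 1 rose and at most 1 fell in each of the 4 knockout lines.

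The sequences under some PCGF6 peaks show where the motifs of PRC1.6 lie in them. Of the 10 shown 8 hold a motif, which is not typical: any of the 3 motifs searched below was at 38.9% of the regions of all 4 lines. Each stretch of 101 bases is the reference of build NCBIM37 (mm9), on the + strand, next to a wild-type summit and outside annotated exons, placed to take in a motif where there was one, and capitals mark an E-box (CACGTG) or an E2F motif (GCGGGAA, or TTCCCGC on the other strand). Those chosen include Hdac2, Zfp280d and Gm129, which are among the strongest promoters of all 4 lines. Stag3 with Gpc2, also among the strongest, was not searched for a stretch. The others are germline promoters the results turn on, the promoters of Mga and Dazl, which hold no motif, and Sycp3, which was not called in Pcgf3/5-/-.
Hdac2: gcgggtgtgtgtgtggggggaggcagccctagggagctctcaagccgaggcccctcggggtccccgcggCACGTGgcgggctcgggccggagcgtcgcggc
Zfp280d: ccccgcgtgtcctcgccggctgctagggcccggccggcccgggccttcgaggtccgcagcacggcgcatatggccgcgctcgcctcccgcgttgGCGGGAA
Gm129: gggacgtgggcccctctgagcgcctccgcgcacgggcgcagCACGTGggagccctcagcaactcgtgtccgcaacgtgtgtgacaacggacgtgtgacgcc
Ddx4: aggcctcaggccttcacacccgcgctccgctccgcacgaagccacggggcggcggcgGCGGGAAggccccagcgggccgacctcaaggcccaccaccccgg
Mov10l1: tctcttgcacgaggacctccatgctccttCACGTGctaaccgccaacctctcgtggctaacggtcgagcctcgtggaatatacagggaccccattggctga
Slc25a31: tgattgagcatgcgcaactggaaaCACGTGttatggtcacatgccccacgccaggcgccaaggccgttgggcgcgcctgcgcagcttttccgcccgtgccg
Stk31: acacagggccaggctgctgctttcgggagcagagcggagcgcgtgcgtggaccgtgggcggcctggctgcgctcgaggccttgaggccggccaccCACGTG
Sycp3: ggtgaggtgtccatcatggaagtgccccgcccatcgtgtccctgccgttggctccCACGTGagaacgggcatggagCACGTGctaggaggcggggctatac
Mga: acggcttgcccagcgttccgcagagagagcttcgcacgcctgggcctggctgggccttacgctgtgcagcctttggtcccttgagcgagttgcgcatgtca
Dazl: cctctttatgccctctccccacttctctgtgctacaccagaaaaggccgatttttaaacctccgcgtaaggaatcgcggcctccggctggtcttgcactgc

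The Hdac2 stretch lies at chr10:36693901-36694001, 399 bp upstream of a transcript start, and the Zfp280d stretch at chr9:72122518-72122618, 138 bp upstream, both in intergenic sequence. Gm129 (chr3:95686543-95686643) is shown 419 bp upstream of a start in an intron, and Ddx4 (chr13:113442272-113442372) 196 bp downstream in an intron. The stretches of Mov10l1 (chr15:88813149-88813249), Slc25a31 (chr3:40512676-40512776) and Stk31 (chr6:49345388-49345488) are intergenic and lie 140, 51 and 165 bp upstream. Sycp3 (chr10:87922213-87922313) has 2 E-boxes, 51 bp upstream of a start, and Mga (chr2:119723168-119723268) holds neither motif 177 bp downstream of one. Dazl (chr17:50432605-50432705), in an intron 269 bp downstream, holds neither as well.

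The 4 PCGF6 lists were largely nested: the sites of the short lists recurred in the long ones. Pcgf1-/- and Pcgf2/4-/- had far more sites absent from wild-type (3658 and 10696 peaks) than wild-type had absent from them (127 and 25), whereas Pcgf3/5-/- had 455 such peaks and lacked 631 of wild-type. The deposited lists held 1868 peaks in wild-type, 5528 in Pcgf1-/-, 12842 in Pcgf2/4-/- and 1571 in Pcgf3/5-/-, and 1042 in Pcgf6-/-. All reached the same lowest −log10 p of 10.0. Of the 1389 wild-type peaks, 98.2% (Wilson 95% interval 97.4 to 98.8) overlapped a peak in Pcgf2/4-/-, 90.9% (89.2 to 92.3) in Pcgf1-/- and 54.6% (51.9 to 57.2) in Pcgf3/5-/-. These intervals, like all intervals of shares here, cover counting error only and not the difference between libraries. In cells with all Pcgf genes the share was 97.0% (95.9 to 97.8) in shCtr and 53.6% (51.0 to 56.2) in Ring1a-/-_Ring1bfl, which lack RING1A.

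Read the other way, the Pcgf3/5-/- peaks were mostly sites known from the other lines, since 97.4% overlapped a Pcgf2/4-/- peak, 92.8% a Pcgf1-/- peak and 62.4% a wild-type peak. Of the Pcgf1-/- peaks 25.4% overlapped wild-type, and of the Pcgf2/4-/- peaks 11.1%. Within the longer lists the wild-type sites stood near the top. The median rank of those that overlapped wild-type was at 6.96% of the Pcgf2/4-/- list and 15.9% of the Pcgf1-/- list, and that of the others at 55.3% and 60.1%. With each list limited to its 1209 strongest peaks, the overlap of wild-type peaks was 64.9% in Pcgf1-/-, 66.2% in Pcgf2/4-/- and 59.1% in Pcgf3/5-/-.

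**Figure D1:**
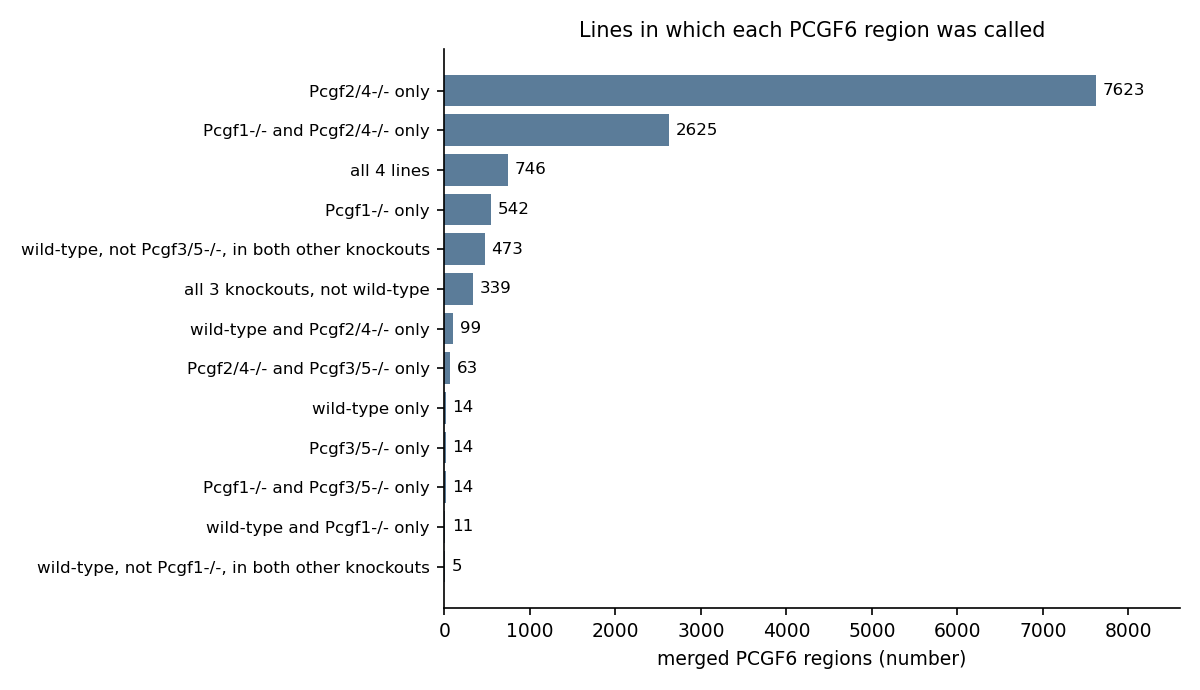
Number of merged PCGF6 regions (horizontal axis) for each pattern of presence in the wild-type, Pcgf1-/-, Pcgf2/4-/- and Pcgf3/5-/- lists (rows), as bars from 0. The longest bar is the 7623 regions of Pcgf2/4-/- alone, 746 regions were in all 4 lists and 14 in wild-type alone.

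By pattern, 7623 regions (60.7%) were called in Pcgf2/4-/- alone, 2625 (20.9%) in Pcgf1-/- and Pcgf2/4-/- only, and 746 (5.94%) in all 4 lines. Another 542 regions were in Pcgf1-/- alone and 14 in Pcgf3/5-/- alone. Wild-type regions without a call in exactly 1 knockout mostly lacked that of Pcgf3/5-/-, the shortest list. In wild-type, Pcgf1-/- and Pcgf2/4-/- but not Pcgf3/5-/- there were 473 regions. Only the Pcgf1-/- call was lacking at 5, and only the Pcgf2/4-/- call at none. With equal lists the shares of wild-type peaks called lay nearer, at 64.9% in Pcgf1-/-, 66.2% in Pcgf2/4-/- and 59.1% in Pcgf3/5-/-. The part of list length in these patterns was not tested. Wild-type alone had 14 regions. The shCtr list, from cells with all Pcgf genes, held 99.7% of the regions of all 4 lines, 92.6% of the 339 regions that all 3 knockouts had and wild-type lacked, 71.0% of those of Pcgf1-/- and Pcgf2/4-/- and 28.8% of those of Pcgf2/4-/- alone. The shorter Ring1a-/-_Ring1bfl list held 72.3%, 36.6%, 10.7% and 2.54% of the same regions.

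Strength within the wild-type list separated the sites that recurred in Pcgf3/5-/- from those that did not. From the strongest to the weakest of 5 equal groups of wild-type peaks by −log10 q, 93.2%, 67.6%, 48.6%, 35.3% and 28.2% were also called in Pcgf3/5-/-. The same groups gave 92.8%, 64.4%, 47.1%, 35.6% and 28.2% in Ring1a-/-_Ring1bfl, a nearly equal series from cells that lack RING1A but no Pcgf gene. In shCtr they gave 99.3%, 100%, 97.5%, 95.7% and 92.4%. In Pcgf1-/- the shares ran from 99.3% to 82.3% and in Pcgf2/4-/- from 99.3% to 97.1%. The wild-type peaks not called in Pcgf3/5-/- had a median rank of 67.5% of the wild-type list, and those called one of 31.9%.

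**Figure D2:**
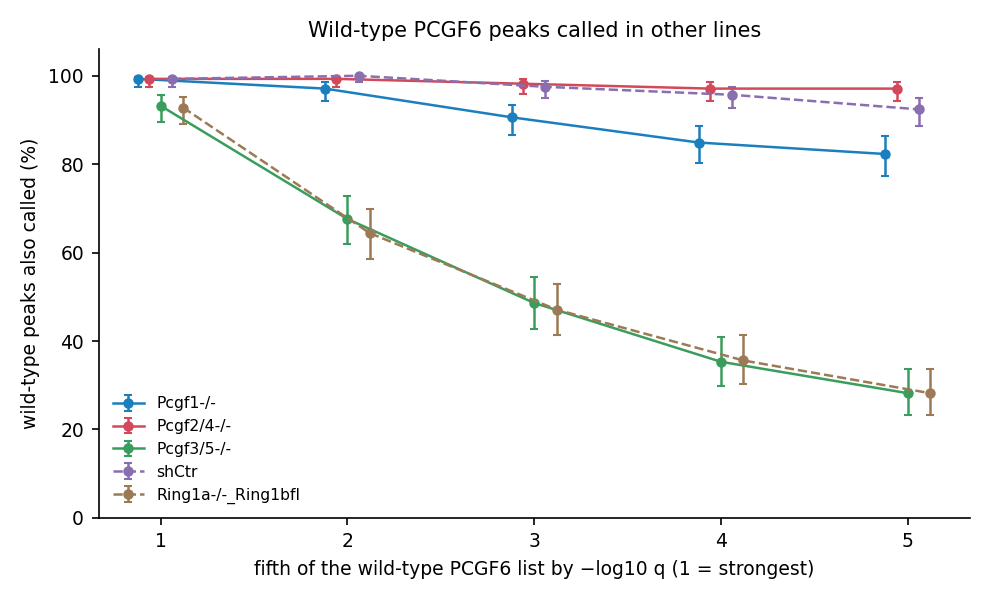
Percent of wild-type PCGF6 peaks also called in another list (vertical axis) for 5 equal groups of wild-type peaks from strongest to weakest (horizontal axis), with 1 line for each of Pcgf1-/-, Pcgf2/4-/-, Pcgf3/5-/-, shCtr and Ring1a-/-_Ring1bfl. The Pcgf3/5-/- and Ring1a-/-_Ring1bfl lines nearly coincide and fall from 93.2% and 92.8% to 28.2% in both, while the others stay above 80%.

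Of the lines that lack other PCGF genes, only Pcgf3/5-/- passed the test for a change in the RNA of Pcgf6 itself. Pcgf6 RNA was 36.2 and 34.3 CPM in wild-type, 34.5 and 37.7 in Pcgf1-/-, 26.8 and 31.4 in Pcgf2/4-/- and 23.3 and 23.4 in Pcgf3/5-/-. The 2 Pcgf3/5-/- libraries lay below all others of these lines (log2 fold change −0.60, SE 0.18, edgeR adjusted p = 0.0417), and this call was lost without wild-type replicate 1, without either Pcgf3/5-/- library, with no filter on low counts and with DESeq2. Neither Pcgf1-/- (0.03, SE 0.18, adjusted p = 0.997) nor Pcgf2/4-/- (−0.25, SE 0.18, adjusted p = 0.413), the lines with the long lists, passed the test. Protein was not measured in the files used here, and the part of the Pcgf6 level in the list lengths was not tested.

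In cells depleted of PRC1.6's own DNA-binding subunits the PCGF6 lists were short. After removal of background 47 peaks remained with a hairpin against MGA (shMGA, 90.0% of the deposited peaks removed), 396 with one against E2F6 (shE2F6), 429 in shMGAdHLH and 98 in shE2F6-MGAdHLH. They overlapped 0.576%, 24.2%, 15.3% and 4.03% of the wild-type peaks in that order. The control hairpin list shCtr, with 6748 peaks kept, overlapped 97.0%. In cells without RING1A and RING1B, with 977 peaks kept, the share was 29.2%. It was 53.6% in Ring1a-/-_Ring1bfl, with 1581 peaks kept.

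The removal of background took 25.6% of the wild-type peaks, 23.0% in Pcgf3/5-/-, 11.3% in Pcgf1-/- and 6.35% in Pcgf2/4-/-. The Pcgf6-/- list looked unlike the kept lists in position: 37.0% of its peaks were at promoters, its median distance from summit to start was 6132 bp, and 9.21% overlapped RING1B of the same cells. Of the wild-type peaks removed, 39.2% came from the strongest of the 5 groups of the deposited list. Few kept peaks lay near the edge of this rule, with 3 in wild-type, 27 in Pcgf1-/-, 54 in Pcgf2/4-/- and 11 in Pcgf3/5-/- within 1 kb of a background peak.

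The rule also took some germline promoters with it. Of the 20 germline genes found in the annotation, 18 had a promoter peak in the deposited wild-type list, 19 in Pcgf1-/-, 20 in Pcgf2/4-/- and 16 in Pcgf3/5-/-, but 7 of them had one in Pcgf6-/- too. Zcwpw1, which encodes a reader of meiotic histone marks, had the fifth-ranked wild-type peak (rank 5, fold enrichment 40.5) and a Pcgf6-/- peak of 9.53 at rank 660. Smc1b, a meiotic cohesin subunit, had 28.4 in wild-type at rank 26 and 7.36 in Pcgf6-/- at rank 976. Stra8, which encodes the retinoic acid-induced factor of meiotic entry, was the reverse, with 10.4 at rank 578 in wild-type and 19.9 at rank 175 in Pcgf6-/-. These folds are the authors' enrichments, each on the scale of its own list, and they are used here only to place a peak within its list. For Sycp1, Tdrkh, Hormad1 and Tdrd1 the wild-type ranks were 48, 57, 64 and 246 and the Pcgf6-/- ranks 655, 464, 501 and 566.

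PCGF6 sat mostly at promoters in every line, and the added sites of Pcgf2/4-/- less so. Within 2.5 kb of an annotated start lay 79.6% (77.4 to 81.6) of the wild-type peaks, 79.3% (78.1 to 80.4) of those in Pcgf1-/-, 67.5% (66.6 to 68.3) in Pcgf2/4-/- and 82.1% (79.9 to 84.2) in Pcgf3/5-/-, where such windows cover 8.95% of the genome. The shCtr list had 70.4%. The median distance from summit to start was 308 bp in wild-type, 298 in Pcgf1-/-, 460 in Pcgf2/4-/- and 257 in Pcgf3/5-/-. Regions of all 4 lines were at a promoter in 85.3% of cases and had a median width of 1050 bp. Those of Pcgf2/4-/- alone were at a promoter in 60.6% and had a median width of 403 bp. With equal lists of 1209 peaks the share was 84.7% in Pcgf1-/- and 82.6% in Pcgf2/4-/-, so the lower share of Pcgf2/4-/- belonged to its weaker peaks.

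E-boxes marked the peaks of each line. In the summit base and 100 bases either side, searched on both strands, CACGTG was present at 26.2% of wild-type peaks, 23.2% in Pcgf1-/-, 16.4% in Pcgf2/4-/- and 28.0% in Pcgf3/5-/-. It was present at 5.57% of Pcgf6-/- peaks, at 5.43% of the wild-type peaks removed, and at 4.54% of windows of the same length at 86877 annotated starts. The E2F motif GCGGGAA was present at 8.93%, 6.86%, 5.82% and 8.68% of the 4 lists in that order and at 3.44% of the starts. The T-box motif AGGTGTGA (TCACACCT), a letter string related to the site of MGA's other DNA-binding domain, was at 2.59% in wild-type and 0.679% of the starts. Different motifs overlapped each other at none of the 1389 wild-type summits, a count that allows up to 0.276%. Bases differed too, with a median G and C content of 64.7% in wild-type, 61.7% in Pcgf2/4-/-, 53.7% in Pcgf6-/- and 55.2% at the starts, and the part of base content in the motif shares was not tested.

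Both motifs were most frequent in the strongest of the 5 groups of wild-type peaks. From strongest to weakest the E-box was at 32.4%, 28.4%, 23.7%, 25.2% and 21.3%, and the E2F motif at 13.7% of the strongest and between 7.22% and 8.63% of the other 4. In regions of all 4 lines the E-box was at 29.2% (26.1 to 32.6), in those of wild-type, Pcgf1-/- and Pcgf2/4-/- but not Pcgf3/5-/- at 26.4% (22.7 to 30.6), and in those of Pcgf2/4-/- alone at 13.7% (13.0 to 14.5). The 542 regions of Pcgf1-/- alone had it at 30.3%. Of these 34.3% overlapped a wild-type peak of USF1, another protein that binds the E-box, against 8.00% of all protein-coding starts. This overlap was not particular to them. USF1 was also at 35.7% of the wild-type PCGF6 peaks with RING1B but not SUZ12, and at 36.2% of those with neither. At those with both it was at 14.7%. WDR5, the WD-repeat subunit of PRC1.6 that is shared with H3K4 methyltransferases, overlapped 65.8% of regions of all 4 lines and 4.13% of those of Pcgf2/4-/- alone in wild-type cells.

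RING1B remained at most wild-type PCGF6 sites when PCGF1, PCGF2/4 or PCGF3/5 was lost, and was missing from most in Pcgf6-/-. The RING1B lists of the 5 lines were close in length, at 5454 to 5696 peaks. RING1B overlapped 59.3% (56.7 to 61.9) of the wild-type PCGF6 peaks in wild-type cells, 68.7% (66.2 to 71.1) in Pcgf1-/-, 78.0% (75.8 to 80.1) in Pcgf2/4-/-, 67.8% (65.3 to 70.2) in Pcgf3/5-/- and 27.7% (25.4 to 30.1) in Pcgf6-/-. Sites with RING1B in wild-type kept the call in 93.9%, 96.5% and 93.8% of cases in those 3 lines and in 46.1% in Pcgf6-/-. Sites without it in wild-type had a call in 31.9%, 51.2% and 29.9%, and in 0.885% in Pcgf6-/-.

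Counted over each line's own PCGF6 peaks, RING1B of the same line was at 59.3% in wild-type, 49.1% in Pcgf1-/-, 36.7% in Pcgf2/4-/- and 71.1% in Pcgf3/5-/-. This order changed with equal lists. Among the 1209 strongest peaks of each line the share was 60.7%, 71.2%, 91.0% and 71.1%, so Pcgf2/4-/- moved from the lowest to the highest. Of those 1209 strongest Pcgf2/4-/- peaks, 380 overlapped no wild-type PCGF6 peak. RING1B of Pcgf2/4-/- was at 82.4% (78.2 to 85.9) of these 380, and RING1B of wild-type at 43.7% (38.8 to 48.7). For the 390 such peaks of Pcgf1-/-, RING1B of that line was at 51.5% and that of wild-type at 36.4%. For the 455 of Pcgf3/5-/- the shares were 52.3% and 40.4%. Each set was chosen by the PCGF6 list of its own line, so these differences are no independent evidence. Seen from RING1B, 14.4% of its peaks held PCGF6 in wild-type, 38.7% in Pcgf1-/-, 74.9% in Pcgf2/4-/- and 14.9% in Pcgf3/5-/-.

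A split of the wild-type PCGF6 peaks by SUZ12, chosen after their values were seen, separated the sites by what RING1B did in Pcgf6-/-. Of the 1389 peaks 590 (42.5%) overlapped SUZ12 of wild-type cells. At these RING1B was called in 96.9% in wild-type, 95.9% in Pcgf1-/-, 98.0% in Pcgf2/4-/-, 95.6% in Pcgf3/5-/- and 63.9% in Pcgf6-/-. At the 799 without SUZ12 it was called in 31.5% in wild-type, 48.6% in Pcgf1-/-, 63.3% in Pcgf2/4-/- and 47.3% in Pcgf3/5-/-, and in Pcgf6-/- at 8 of them (1.00%, 0.508 to 1.96). The median PCGF6 fold enrichment was 7.97 in both sets. PCGF2 of wild-type cells overlapped 72.4% of the peaks with SUZ12 and 5.63% of those without, and H3K27me3 57.3% and 2.5%. Over all wild-type PCGF6 peaks, RING1B of Pcgf6-/- was at 17.3% of the strongest of the 5 groups and at 35.4% of the weakest. RING1B of wild-type was at 84.5% and 47.3% of the same groups.

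**Figure D3:**
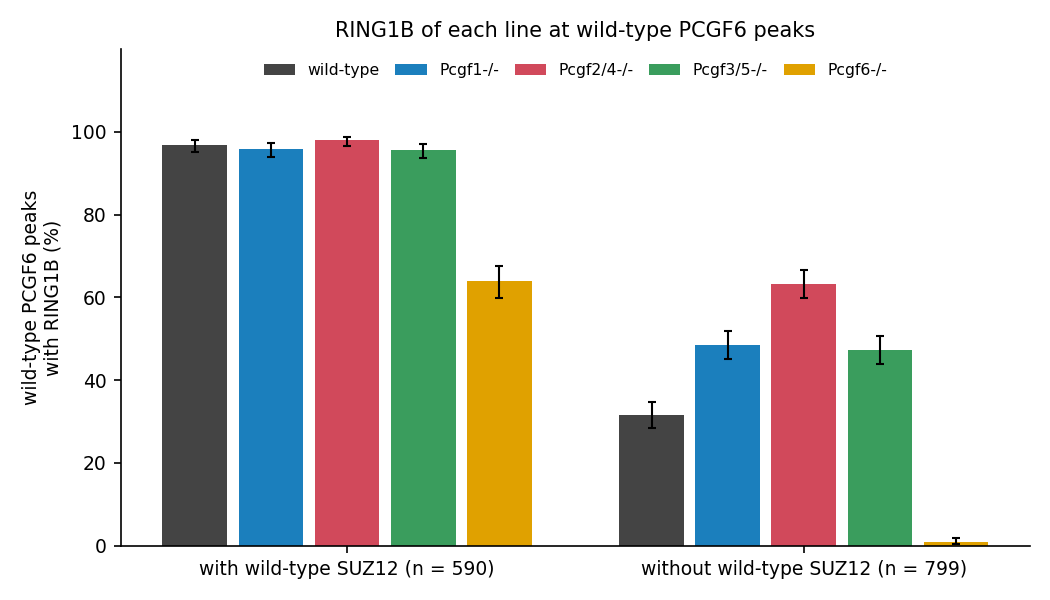
Percent of wild-type PCGF6 peaks with a RING1B peak (vertical axis) in wild-type, Pcgf1-/-, Pcgf2/4-/-, Pcgf3/5-/- and Pcgf6-/- cells, for the 590 peaks with and the 799 without SUZ12, with Wilson 95% intervals (counting error only). Without SUZ12 the share runs from 31.5% in wild-type to 63.3% in Pcgf2/4-/- and is 1.00% in Pcgf6-/-; with SUZ12 it is 95.6% or more except in Pcgf6-/-, at 63.9%.

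Among the peaks without SUZ12, the 252 with wild-type RING1B were the ones that recurred best: PCGF6 was called at 98.4% of them in Pcgf1-/-, 100% in Pcgf2/4-/- and 82.1% (76.9 to 86.4) in Pcgf3/5-/-. Their median fold enrichment was 10.4, WDR5 overlapped 77.8% and the E-box was at 31.7%. The 547 with neither RING1B nor SUZ12 were called in Pcgf3/5-/- in 39.1%, had WDR5 at 36.7% and the E-box at 34.0%. RING1B of Pcgf2/4-/- was at 50.5% of these 547 and RING1B of Pcgf6-/- at 0.183%. At the 572 with both, PCGF6 was called in Pcgf3/5-/- in 58.0% and the E-box was at 16.6%.

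Some genes of PRC1.6 were among the PCGF6 sites. Of all 15871 genes tested for RNA, 5.94% had a PCGF6 promoter peak in wild-type, 20.2% in Pcgf1-/-, 37.8% in Pcgf2/4-/- and 5.61% in Pcgf3/5-/-, so a call in Pcgf2/4-/- alone says little of a list. Of 16 genes of the complex, Mga, E2f6, Tfdp1 (the DP partner) and Hdac2 had a promoter peak in all 4 lines, Pcgf6 had one in the 3 knockouts but not in wild-type, and Rybp, an adaptor of variant PRC1, in Pcgf1-/- and Pcgf2/4-/-. L3mbtl2, Cbx1, Ring1 and Yaf2 had one in Pcgf2/4-/- alone, and Max, Tfdp2, Cbx3, Hdac1, Wdr5 and Rnf2 in none. Hdac2 ranked 1 in each of the lists, with a fold enrichment of 43.3 in wild-type, 56.2 in Pcgf1-/-, 85.7 in Pcgf2/4-/- and 37.9 in Pcgf3/5-/-. E2f6 ranked 24, 19, 35 and 29 in that order, and Mga 84, 49, 457 and 327. Over the 10 genes with a PCGF6 promoter peak in any of the 4 lines, RING1B was there at 3 in wild-type cells, 4 in Pcgf1-/-, 4 in Pcgf2/4-/- and 5 in Pcgf3/5-/-, and at none in Pcgf6-/-.

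Of 18 genes of the other PRC1 forms, none had a PCGF6 promoter peak in wild-type or Pcgf3/5-/-, which is near the share of all genes given above. Pcgf2, Bcor, Skp1a, Phc2 and Auts2 had a promoter peak in Pcgf1-/- and Pcgf2/4-/-, and 6 more, among them Kdm2b, the CpG-island reader of the PCGF1 complex, in Pcgf2/4-/- alone.

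Most listed germline genes with a PCGF6 promoter peak in wild-type had one in every line. After removal of background, 10 of the 22 listed genes had a peak in all 4 lines: Ddx4, Dazl, Mael, Mov10l1, Stk31, Slc25a31, Taf7l, Tex101, Stag3 and Mei1. Of all 15871 genes tested for RNA, 586 had one in all 4 lines. Sycp3 had one in all but Pcgf3/5-/-, Zcwpw1 and Sohlh2 in Pcgf1-/- and Pcgf2/4-/-, and Tex11 in Pcgf2/4-/- alone. The other 8 had none in any of these lines. The Zcwpw1 region kept is another one than the strong peak removed as background. Majin and Meioc were not matched in the annotation. The list comes from an earlier account of these data and is no independent evidence.

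Ddx4, the RNA helicase of germ cells, had a fold enrichment of 24.2 at rank 12 in wild-type, 19.1 at rank 152 in Pcgf1-/-, 33.8 at rank 148 in Pcgf2/4-/- and 11.1 at rank 177 in Pcgf3/5-/-. Stag3, a meiotic cohesin subunit whose region chr5:138721014-138722354 also covers the start of Gpc2, ranked 2, 3, 7 and 4. Stk31, a kinase-like gene of the testis, ranked 35, 11, 13 and 14. Sycp3, a protein of the synaptonemal complex, ranked 489 of 1389 in wild-type, with a fold enrichment of 6.08, and 203 of 12027 in Pcgf2/4-/-, with 27.9 on that list's scale. Over the 14 germline genes with a PCGF6 promoter peak in any of the 4 lines, RING1B was there at 9 in wild-type cells, 10 in Pcgf1-/-, 11 in Pcgf2/4-/-, 11 in Pcgf3/5-/- and 2 in Pcgf6-/-.

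At developmental regulators RING1B was called in nearly all lines and at nearly all promoters with a PCGF6 peak in any of them. Of 20 such genes, Cdx2, Pax6, Neurog1 and Olig2 had a PCGF6 promoter peak in all 4 lines, Hoxd13 in all but Pcgf3/5-/-, Lhx2 in the 3 knockouts, and 7 (Gata6, Sox17, T, Pax3, Nkx2-2, Isl1 and Foxa2) in Pcgf1-/- and Pcgf2/4-/-. Gata4, Hoxb1, Tbx5 and Hand1 had none. Cdx2, the trophoblast and posterior homeobox gene, ranked 783 of 1389 in wild-type, 713 of 4901 in Pcgf1-/-, 669 of 12027 in Pcgf2/4-/- and 682 of 1209 in Pcgf3/5-/-, and Neurog1, a neurogenic factor, 783, 346, 782 and 366 in the same lists. Over the 16 genes with a PCGF6 promoter peak in any of the 4 lines, of which 5 had one in wild-type, RING1B was there at 15 in wild-type cells, 15 in Pcgf1-/-, 14 in Pcgf2/4-/-, 15 in Pcgf3/5-/- and 16 in Pcgf6-/-.

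**Figure D4:**
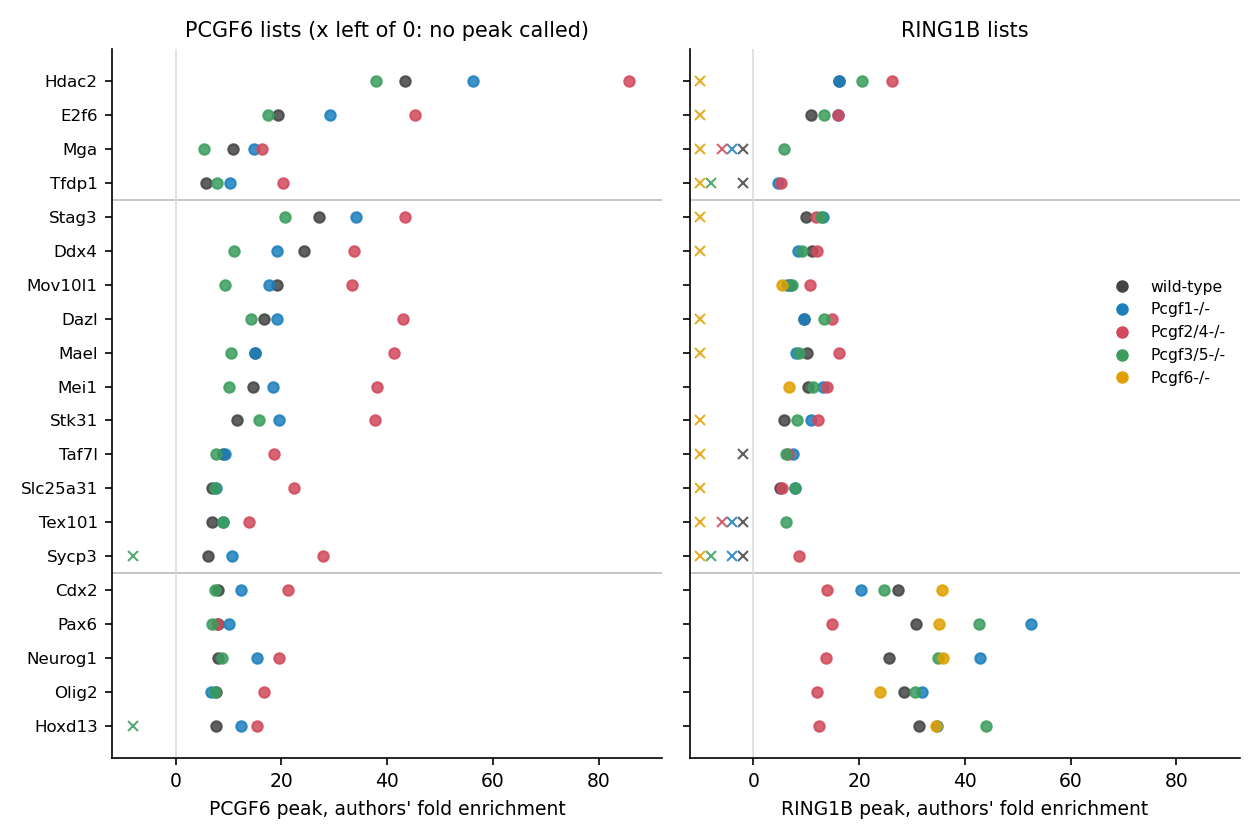
The authors' fold enrichment (horizontal axis) of the PCGF6 peak and of the RING1B peak at 20 promoters of PRC1.6, germline and developmental genes (rows), with 1 colour for each line; a mark left of 0 means that no peak was called. Folds are on each list's own scale. The strongest PCGF6 peaks shown are at PRC1.6 and germline promoters, such as Hdac2 and Ddx4. In wild-type Tfdp1 (5.64), Sycp3 (6.08), Tex101 and Slc25a31 (6.90 each) lie below the developmental promoters shown (7.62 to 7.97). Most PRC1.6 and germline promoters have no RING1B peak in Pcgf6-/-, but Mga, Tfdp1, Sycp3, Taf7l and Tex101 have none in wild-type either. Most developmental promoters have RING1B peaks in all 5 lines.

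The best-ranked regions of each pattern show how strong its members were. The 4 best-ranked promoter regions of all 4 lines were those of Hdac2, Stag3 with Gpc2, Zfp280d (ranks 4, 2, 3 and 3) and Gm129 (ranks 5, 8, 2 and 5). In wild-type, Pcgf1-/- and Pcgf2/4-/- but not Pcgf3/5-/- the best were 4921515J06Rik with Gm9857 (wild-type rank 96), Rad21l, a meiotic cohesin subunit (148), Spint2, a protease inhibitor (171), and Ilkap, a phosphatase (188). Without the Pcgf1-/- call there were Syce3, of the synaptonemal complex (wild-type rank 349), Syn2 (675), Dach1 (893) and Frat2 (1355). The 4 promoter regions of wild-type alone, at Dapk1, Gpr84, Tmem167 with Xrcc4, and Tmem194, ranked 893 to 1355 of 1389. At Dapk1 and Tmem194 another region nearby was called in knockout lines.

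The best regions of Pcgf2/4-/- alone were St8sia3 (rank 301), Slc32a1, the vesicular GABA transporter (602), Duox2 with Duoxa2 (625) and Trio (634) among 12027. Those of Pcgf1-/- alone were Eomes, a T-box regulator of mesoderm and trophoblast (653), Hoxb2 (882), 2310044G17Rik (946) and Osta (1074) among 4901. In Pcgf3/5-/- alone Ppp3cc and Uggt2 ranked 582, Arf4 with 4930570N19Rik 882 and Fezf2, a forebrain factor, 993 among 1209. At Slc32a1, Eomes and Fezf2 RING1B was called in wild-type too, with fold enrichments of 20.1, 22.4 and 27.3.

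RNA of genes with a wild-type PCGF6 promoter peak moved at about the rate of all genes in Pcgf1-/-, Pcgf2/4-/- and Pcgf3/5-/-, and more often upward in Pcgf6-/-. Counts were tested with edgeR's quasi-likelihood test against wild-type over 15871 genes, at an adjusted p below 0.05. Of the 943 such genes tested, 100 (10.6%) rose in Pcgf1-/- where 9.55% of all genes tested did, and 144 (15.3%) fell against 12.6%. In Pcgf2/4-/- 48 (5.09%) rose against 5.05% and 111 (11.8%) fell against 9.19%, and in Pcgf3/5-/- 91 (9.65%) rose against 7.67% and 66 (7.0%) fell against 5.96%. In Pcgf6-/- 338 (35.8%) rose against 24.4% of all genes and 80 (8.48%) fell against 14.2%. The 4 comparisons share the wild-type libraries.

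These counts moved with single libraries. In Pcgf1-/- they were 49 raised and 91 lowered without Pcgf1-/- replicate 1 and 75 lowered without Pcgf1-/- replicate 2. Without Pcgf2/4-/- replicate 1, the shallow library, 84 were raised in that line. In Pcgf3/5-/- 45 were raised and 26 lowered without Pcgf3/5-/- replicate 1, and 22 lowered without Pcgf3/5-/- replicate 2. In Pcgf6-/- 48 and 47 were lowered without replicate 1 and replicate 2, and the raised count stayed between 274 and 322 whichever library of the pair compared was left out.

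Genes that gained or lost a PCGF6 call mostly changed at rates near those of all genes. Of the 355 tested genes whose wild-type promoter peak was not called in Pcgf3/5-/-, 8.73% rose and 5.63% fell in that line. Of the 302 with a peak there and none in wild-type, 11.3% rose and 6.95% fell (all genes: 7.67% and 5.96%). Of the 5067 such genes in Pcgf2/4-/-, 5.49% rose and 10.6% fell (all genes: 5.05% and 9.19%). Of the 2309 such genes in Pcgf1-/-, 10.3% rose and 14.4% fell (all genes: 9.55% and 12.6%). Of only 41 tested genes that lost the call in Pcgf1-/-, 7.32% rose and 19.5% fell. The 2988 genes with a peak in Pcgf2/4-/- alone were raised in Pcgf6-/- in 23.6% of cases, next to 24.4% of all genes. Among genes with a wild-type peak, those with RING1B and SUZ12 there rose in Pcgf6-/- in 57.2% of 311 cases (median log2 fold change 1.22, where that of all genes was 0.03). Those with RING1B alone rose in 30.1% of 193, and those with neither in 21.7% of 401. In Pcgf2/4-/- 21.5% of the 311 genes with RING1B and SUZ12 fell, against 9.19% of all genes (median −0.48). In Pcgf1-/- 20.3% of the same genes fell, against 12.6% (median −0.18), and 13.5% rose, against 9.55%. In Pcgf3/5-/- 10.6% of them fell, against 5.96%, and 13.8% rose, against 7.67%.

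Nearly all germline genes rose in Pcgf6-/-, and fewer passed the test, in both directions, in the other lines. Of 20 listed genes tested, 19 rose in Pcgf6-/-, where 24.4% of all genes did, and Stag3 alone fell, by 0.45 on the log2 scale, a call lost without wild-type replicate 1 or Pcgf6-/- replicate 2. In Pcgf1-/- 3 rose and 6 fell, where 9.55% and 12.6% of all genes did. In Pcgf2/4-/- 2 rose and 4 fell (5.05% and 9.19% of all genes), and in Pcgf3/5-/- 7 and 4 (7.67% and 5.96%). The list's median log2 fold change was 3.43 in Pcgf6-/-, where that of all genes was 0.03, and −0.12, −0.15 and 0.29 in the other lines.

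Markers of other cell types moved in the same lines. Those of 2-cell-like cells rose in Pcgf6-/- (5 of 5 tested), where 24.4% of all genes did. They fell in Pcgf1-/- (5 of 5), Pcgf2/4-/- (4 of 5) and Pcgf3/5-/- (4 of 5), where 12.6%, 9.19% and 5.96% of all genes did. Their summed level was 112 to 113 CPM in wild-type, 3.43 to 12.1 in Pcgf1-/-, 55.3 to 56.5 in Pcgf2/4-/-, 15.1 to 16.4 in Pcgf3/5-/- and 422 to 467 in Pcgf6-/-. Primitive endoderm markers, of which Gata4, Gata6, Sox17, Foxa2 and Dab2 had no count in wild-type, summed to 3.09 to 3.57 CPM there and to 48.7 to 55.8 in Pcgf6-/-, where 3 of 5 tested rose. Trophoblast markers summed to 206 to 223 CPM in wild-type and 316 to 326 in Pcgf6-/- (4 of 6 rose, and Cdx2 fell). Fibroblast markers summed to 7.45 to 10.6 and 24.4 to 28.6 (2 of 3 tested rose, Dcn without a count). In Pcgf1-/-, Pcgf2/4-/- and Pcgf3/5-/-, in that order, 0, 2 and 2 of 5 primitive endoderm markers rose and 1, 0 and 0 fell. Of 6 trophoblast markers 0, 0 and 1 rose and 3, 1 and 1 fell. Of 3 fibroblast markers 0, 0 and 1 rose and 1, 2 and 0 fell. The part of these cells in the germline values was not tested.

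Ddx4 stood at 16.1 and 15.2 CPM in wild-type, 14.2 and 12.1 in Pcgf1-/-, 6.28 and 8.82 in Pcgf2/4-/-, 10.4 and 10.2 in Pcgf3/5-/- and 224 and 250 in Pcgf6-/-. Only the Pcgf6-/- libraries were above wild-type (log2 fold change 3.92, SE 0.18, edgeR adjusted p = 1.4e-08). The falls in Pcgf2/4-/- (−0.96) and Pcgf3/5-/- (−0.60) lost their call in a fit of 2 groups only, the latter also with DESeq2 and without any 1 of its 4 libraries. Mael, a piRNA pathway protein, stood at 20.1 and 23.9 CPM in wild-type, 7.43 and 6.17 in Pcgf1-/-, 12.6 and 15.2 in Pcgf2/4-/-, 5.48 and 5.18 in Pcgf3/5-/- and 194 and 220 in Pcgf6-/-. It fell in Pcgf1-/- (−1.66, SE 0.19, adjusted p = 5.76e-05) and Pcgf3/5-/- (−2.04, SE 0.19, adjusted p = 2.35e-05) with its PCGF6 peak called in both.

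Mei1, a gene of meiotic recombination, had 1.85 and 2.39 CPM in wild-type and 13.1 and 11 in Pcgf6-/-. It had no count in the 6 libraries of Pcgf1-/-, Pcgf2/4-/- and Pcgf3/5-/-, where 3 counts would be 0.382 to 1.09 CPM by raw library totals. Its PCGF6 peak was called in all 4 lines. Slc25a31, the germ-cell ADP/ATP carrier, stood at 3.85 and 4.78 CPM in wild-type and 180 and 196 in Pcgf6-/- (5.43, SE 0.24, edgeR adjusted p = 1.13e-08). Mov10l1, the helicase of piRNA production, rose likewise in Pcgf6-/- to 198 and 204 CPM, and passed the test in none of the other 3 lines.

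Among the listed germline genes, Sycp3 alone had a wild-type peak that was kept and not called in Pcgf3/5-/-. Its RNA there was 11.5 and 10.7 CPM against 14 and 12.9 in wild-type (−0.27, SE 0.24, edgeR adjusted p = 0.557). In the lines where the peak was called it was higher, at 32.8 and 39.8 CPM in Pcgf1-/- (1.41, SE 0.22) and 48.2 and 42.6 in Pcgf2/4-/- (1.73, SE 0.23). It was highest in Pcgf6-/-, at 101 and 112. Tex101, a surface protein of germ cells, rose in Pcgf3/5-/- with its peak called: 31.6 and 33.6 CPM against 14.6 and 15.8 (1.10, SE 0.22, adjusted p = 0.00495). Sohlh2, a transcription factor of early oocytes and spermatogonia, rose there without a peak in either list, at 110 and 107 CPM against 39.4 and 32.4 (1.59, SE 0.16, adjusted p = 3.69e-05).

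**Figure D5:**
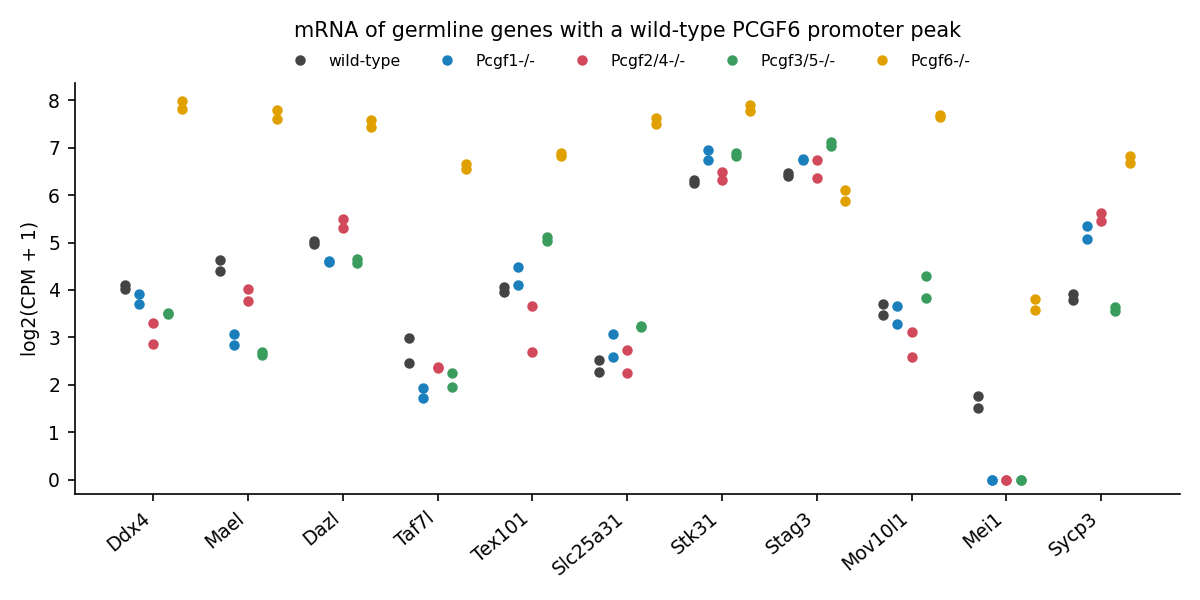
RNA of 11 germline genes with a wild-type PCGF6 promoter peak, as log2(CPM + 1) (vertical axis) in each library, with 2 points for each of wild-type, Pcgf1-/-, Pcgf2/4-/-, Pcgf3/5-/- and Pcgf6-/- cells. For Ddx4 and Mael the Pcgf6-/- points lie far above all others, and for Sycp3 the Pcgf1-/- and Pcgf2/4-/- points lie between wild-type and Pcgf6-/-.

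Mga RNA was 226 and 216 CPM in wild-type and fell in Pcgf6-/- alone of the 4 lines, to 112 and 114 (−0.97, SE 0.16, edgeR adjusted p = 0.000274). Tfdp1 fell in Pcgf1-/-, from 132 and 141 CPM to 84.6 and 95.1 (−0.61, SE 0.15, adjusted p = 0.0104), a call lost without Pcgf1-/- replicate 1 and in a fit of 2 groups only. Hdac2, the strongest PCGF6 site, stood between 63.9 and 109 CPM in all libraries of the 5 lines. It passed the test in none of the 4 knockout lines, and the lowest adjusted p was that of Pcgf1-/- (−0.40, SE 0.14, adjusted p = 0.0554), where it passed with the wild-type libraries kept as 2.

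Other genes with PCGF6 called in all 4 lines were named by the size of their change. Htra1, a secreted protease, fell from 14.3 and 16.5 CPM to 1.42 and 1.14 in Pcgf1-/- (−3.52, SE 0.31) and to 1.26 and 2.56 in Pcgf2/4-/- (−2.79, SE 0.30). Hoga1, a mitochondrial aldolase, rose from 1.57 and 1.13 CPM to 8.42 and 5.94 in Pcgf1-/- and to 5.86 and 6.90 in Pcgf2/4-/-, where the call was lost in a fit of 2 groups only. Osbpl5, a lipid transfer protein, rose in Pcgf3/5-/- from 2.28 and 2.39 CPM to 21.3 and 19.8 (3.12, SE 0.38, edgeR adjusted p = 0.000172).

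Genes that lost the call in Pcgf3/5-/- moved in both directions. Hmgn3, a nucleosome-binding protein, fell there from 7.56 and 9.0 CPM to 0.668 and 0.767 (−3.51, SE 0.36, edgeR adjusted p = 4.02e-05) and stood at 90.4 and 104 in Pcgf6-/-. Kcnip3, a calcium-binding channel partner, rose from 5.14 and 4.92 CPM to 25.8 and 19.9 (2.19, SE 0.33, adjusted p = 0.000763). Genes that gained the call also did both. Limch1, with a peak in Pcgf1-/- and none in wild-type, fell there from 18.8 and 19.7 CPM to 0.656 and 0.229. Hoxa10, a posterior homeobox gene with a Pcgf1-/- and Pcgf2/4-/- peak, rose from 3.71 and 4.22 CPM to 24.7 and 19.7 and to 25.1 and 26.7 in those lines.

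Cdx2, with a PCGF6 peak in all lines, was at 71.1 and 77.8 CPM in wild-type, 24.2 and 21.3 in Pcgf1-/- and 4.61 and 6.13 in Pcgf6-/-. It fell in Pcgf1-/- (−1.70, SE 0.16, edgeR adjusted p = 1.19e-05) and in Pcgf6-/- (−3.81, SE 0.18, adjusted p = 1.4e-08). In Pcgf3/5-/- it rose to 112 and 102 CPM (0.52, SE 0.15, adjusted p = 0.0350), a call lost without wild-type replicate 1, without either Pcgf3/5-/- library and with no filter on low counts. Pax3, a neural crest and muscle regulator with a peak in Pcgf1-/- and Pcgf2/4-/-, had no count in wild-type. By raw library totals 3 counts would be 0.439 and 0.431 CPM there. Pax3 reached 4.19 and 6.26 CPM in Pcgf2/4-/-.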

How the data were processed

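Per the submitters' processing notes, the tools were Bowtie 1.2.2, TopHat2 2.1.1, MACS2 2.1.1, HTSeq 0.7.2 and Picard 1.62, with no settings named. The authors deposited 1 peak list per ChIP-seq sample, with a fold enrichment (a linear ratio to the caller's background) and −log10 p and q for each peak, and a table of raw counts per gene symbol for 23377 genes. Coordinates are those of build NCBIM37 (mm9).

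Overlaps of 1 bp or more were computed with custom code, which was checked against bedtools 2.31.1 on simulated intervals. Promoters are the 2.5 kb either side of a GENCODE M1 transcript start, and ranks use −log10 q. Counts were tested with edgeR's quasi-likelihood test (version 4.0.16; TMM scaling, 15871 genes after filterByExpr) in 1 fit of 7 groups, with Benjamini-Hochberg adjustment, and the script was tested on simulated data. All 14 libraries entered, the 2 of wild-type as their sum, since they differed by less than sampling noise; this was decided after the counts were seen, and keeping them as 2 was tried as an alternative. Fits that left out libraries kept the genes tested. The lone wild-type sample is thus assumed to vary like the other groups. Nothing says that libraries of a line came from separate cultures, so p-values measure only the spread between these libraries, which may be technical.

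Genes named are members of the PRC1.6, germline and developmental lists with a PCGF6 region, the 4 best-ranked promoter regions of each pattern, and the 2 most raised and 2 most lowered genes of each class and line, of which some are given. The members and lists were chosen with earlier results of these data known. Other knockdown and histone-mark samples enter only as overlaps.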

Additional observations from a re-analysis of the deposited data

How the results depend on the processing

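Of 155 values recomputed under other settings for 27 results, 98 stayed within their interval or 1.5 times the count, and 57 moved; no direction of a named gene's call reversed in 1855 recomputed values. With only peaks of a −log10 q of at least 10, wild-type kept 692 peaks, Pcgf1-/- 2862 and Pcgf3/5-/- 528. Peaks in 1 line only were then 8, 260 and 1 in these lines, promoter shares 83.4%, 81.6%, 70.6% and 87.3% in wild-type, Pcgf1-/-, Pcgf2/4-/- and Pcgf3/5-/-, RING1B shares 68.4%, 56.8%, 44.2% and 83.5%, and 94.4% of wild-type peaks were in Pcgf1-/-. Without removal of background, the promoter shares were 69.3%, 75.3%, 65.8% and 73.8% and the RING1B shares 46.4%, 45.2%, 35.2% and 58.9%, with 23 regions in wild-type alone and 57.4% of wild-type peaks in Pcgf3/5-/-. With equal lists, 222, 203, 226 and 266 regions were in 1 line only, promoter shares were 84.7% in Pcgf1-/- and 82.6% in Pcgf2/4-/-, RING1B shares 71.2% and 91.0%, and shares of wild-type peaks 64.9%, 66.2% and 59.1%. Promoter windows of 1 kb gave 73.7%, 73.3%, 62.4% and 77.4%, and protein-coding starts 73.9%, 74.5%, 62.5% and 76.8%.

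Requiring a log2 change of at least 1 left 14 raised and 37 lowered genes with a PCGF6 promoter peak in Pcgf1-/-, 9 and 24 in Pcgf2/4-/-, 17 and 12 in Pcgf3/5-/- and 190 and 16 in Pcgf6-/-. A fit of 2 groups only gave 50 and 59 in Pcgf1-/-, 11 and 27 in Pcgf2/4-/- and 151 lowered in Pcgf6-/-; the cause was not tested. Leaving out 1 library gave 49 to 98 raised and 75 to 123 lowered in Pcgf1-/-, 36 to 84 and 95 to 154 in Pcgf2/4-/-, 45 to 78 and 22 to 54 in Pcgf3/5-/-, and 274 to 322 and 47 to 74 in Pcgf6-/-; the lone sample left is then assumed to vary like the other groups. With the wild-type libraries kept as 2, the counts were 135 and 195 in Pcgf1-/-, 67 and 160 in Pcgf2/4-/-, 131 and 98 in Pcgf3/5-/- and 385 and 105 in Pcgf6-/-. Same-numbered libraries had deviations that correlated between −0.707 and 0.648, so the numbers do not pair them. A replicate block, with the wild-type libraries kept as 2, gave 181 lowered genes in Pcgf1-/-, 60 raised and 140 lowered in Pcgf2/4-/-, 117 and 86 in Pcgf3/5-/- and 370 and 99 in Pcgf6-/-, and moved no count by over 1.5 times. With 1 ChIP library per line, a difference between lists cannot be told apart from depth or enrichment of the library. Depth of the ChIP libraries is not given in the sources used here.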

Other observations

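PCGF1 binding at the same sites also differed between lines. PCGF1 peaks overlapped 7.34% (Wilson 95% interval 6.09 to 8.84) of the 1389 wild-type PCGF6 peaks in wild-type cells, 15.9% (14.1 to 17.9) in Pcgf2/4-/-, 2.23% (1.58 to 3.15) in Pcgf3/5-/- and 23.0% (20.9 to 25.3) in Pcgf6-/-. The PCGF1 lists held 736, 1845, 214 and 3228 peaks in that order, so the shares follow the length of the lists, and the part of list length was not tested. PCGF2 peaks of wild-type cells overlapped 34.0% of the wild-type PCGF6 peaks, those of Pcgf1-/- 35.3% and those of Pcgf3/5-/- 29.9%.

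Pcgf5 RNA moved in lines where its gene was not edited. It fell from 13 and 10.8 CPM in wild-type to 5.36 and 4.12 in Pcgf1-/- (log2 fold change −1.28, SE 0.26, edgeR adjusted p = 0.00306) and to 3.77 and 5.88 in Pcgf2/4-/- (−1.18, SE 0.27, adjusted p = 0.0106), 2 calls lost in a fit of 2 groups only. It rose to 40.3 and 44.3 in Pcgf6-/- (1.82, SE 0.23, adjusted p = 3.46e-05). A PCGF6 promoter peak was called at Pcgf5 in Pcgf2/4-/- alone.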
